A study of Mus musculus with 15 samples.

Results

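The centrosome is the microtubule-organizing center of animal cells. A pair of centrioles sits at its core, a layer of pericentriolar material around them anchors γ-tubulin complexes that nucleate microtubules, and appendages on the older centriole dock it to the membrane when it templates a cilium. Many of its structural parts are very long coiled-coil proteins, and cells that divide as fast as mouse embryonic stem cells (mESCs) duplicate the whole structure once per cycle. The values below cover the transcripts of this protein class: every transcript whose gene symbol is Cep followed by a number, for centrosomal protein, together with 9 scaffold and satellite genes named otherwise (Pcnt, Akap9, Cdk5rap2, Cntrl, Cntrob, Ninl, Nin, Ofd1 and Pcm1). The rule found 46 of the 21727 transcripts counted, 37 of them by the Cep symbol, and used no measured value.

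The study compared ribosomes that carry ribosomal protein Rps27 with ribosomes that carry its paralog Rps27l by ribosome profiling, which counts the mRNA fragments that translating ribosomes protect from nuclease (ribosome-protected fragments, RPFs). The libraries come from E14Tg2a.4 mESCs of 3 genotypes: WT, Rps27-FLAG (eS27-FLAG in the labels) and Rps27l-FLAG (eS27L-FLAG), where both alleles of the endogenous gene were edited to add a C-terminal 3xFLAG tag. Each genotype was represented by 3 clonal lines grown without feeders in serum and LIF, and all cells received cycloheximide before lysis. Total RPFs were sequenced from all 9 clones, and RPFs of ribosomes bound by anti-FLAG beads (IP) from the 6 tagged clones, giving 15 libraries in 5 groups of 3. An IP from WT cells was not analysed here, so RPFs that reach the beads without a FLAG tag have no measured level. A ratio of IP to total therefore compares RPFs recovered on the beads with all RPFs of the same clone, and p-values rest on the spread between 3 clones. The replicate number marks the sequencing batch, and each batch held clones of all 3 genotypes.

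The 15 libraries held 3972152 to 8064166 counts, the IP libraries up to 6673935 and the total libraries at least 6313827. Clones of a group differed by more than counting noise in every pair (chi-square per degree of freedom 1.78 to 10.3), with replicate 1 of the Rps27-FLAG and WT groups and replicate 3 of the Rps27l-FLAG groups farthest from the other 2. The 10 stem cell markers checked, among them Pou5f1, Nanog and Sox2, were all measured, with a summed level of 3740 to 4584 normalized CPM (counts scaled to the library total). That sum was 3740 to 4086 in the total libraries and 4451 to 4584 in the IP libraries, and its part in the results was not tested. Markers of primitive endoderm summed to 1.60 to 13.9 CPM, of mesoderm to 0.149 to 2.24, of neural cells to 25.8 to 48.1 (Nes, Pax6 and Sox1) and of fibroblasts to 8.94 to 33.2 (Thy1 and Col1a1 with Col1a2 and Dcn).

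Of the 46 centrosomal transcripts, 43 passed the filter on low counts (over 2 CPM in at least 14 of the 15 libraries), which kept 10085 transcripts in all. Cep126 had 2 to 18 counts per library, Cep295nl had 0 to 7, and Cep83os, a noncoding RNA antisense to Cep83 without a coding sequence (CDS), had 0 counts in every library; these 3 were not tested. Counts of the tested members ran from 8 for Cep85l to 3049 for Pcm1 in a single library, with a median of 202. Together the members took 0.267 to 0.278% of the counts of the WT libraries, 0.255 to 0.267% of the total RPFs of the tagged lines, and 0.208 to 0.228% of the IP RPFs.

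Translation of these genes in WT cells covered a wide range. Per kilobase of counted CDS, the highest RPF density belonged to Cep55, which acts at the midbody in the last step of cell division, at 108 ± 7.14 normalized CPM per kb (SD, n = 3), with the 3 clones between 102 and 116. Pcm1, the main component of the centriolar satellites, followed at 63.7 ± 1.21, and Cep57, a protein of the pericentriolar layer, at 62.2 ± 3.49, a difference smaller than the spread between clones. At the low end stood Nin at 2.13 ± 0.21, Cep112 at 1.88 ± 0.53 and Cep85l at 1.73 ± 0.90, whose clones overlapped. Cep55 lay above 82.5% of all tested transcripts by density and Cep85l above 1.89%. Of the pericentriolar scaffolds, Pcnt stood at 37.4 ± 3.98, Cep192 at 33.2 ± 2.67, Cdk5rap2 at 20.6 ± 1.16 and Akap9 at 16.8 ± 1.25 CPM per kb. The ranges of Pcnt (33.0 to 40.8) and Cep192 (30.2 to 34.8) overlapped, although Pcnt was the higher of them within each clone. Both lay above Cdk5rap2 in every clone.

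**Figure D1:**
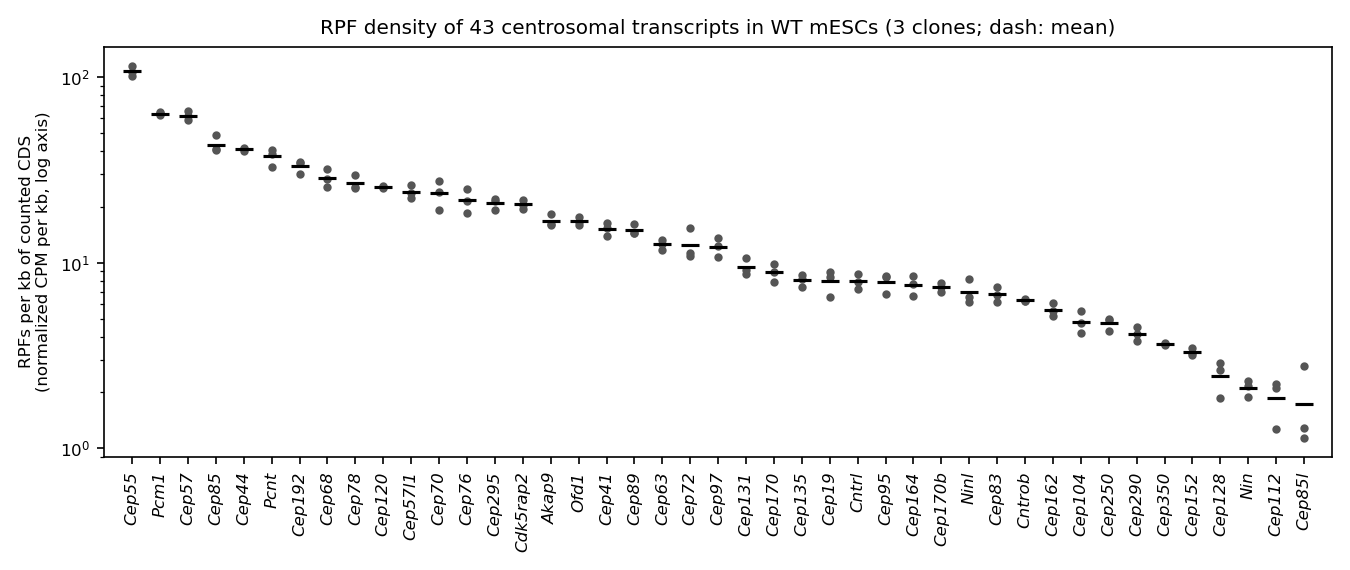
RPF density in the 3 WT clones (points; dash, mean of 3) for the 43 tested centrosomal transcripts, in normalized CPM per kb of counted CDS on a log axis. The order runs from Cep55 near 108 to Cep85l near 1.73.

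The members shared 2 features that the rule did not use. Their CDSs were long, with a median of 2967 nt and a range of 492 nt (Cep19) to 11340 nt (Akap9), against a median of 1437 nt for the 10039 other tested transcripts with a CDS. They were also rich in codons for glutamate, glutamine and lysine, the residues that dominate the surface of long coiled coils: these made up a median of 27.02% of codons in the members and 17.6% in the others. 32 of the 43 members lay above 24.2%, the 90th percentile of the others. Cep83 (35.9%), Cep250 (34.4%), Cep290 (34.4%) and Cep63 (34.3%) were among the richest, while Cep170b (16.0%), Cep76 (16.4%), Cep192 (16.4%) and Cep68 (16.8%) lay below the median of the others. GC content was lower than elsewhere, at a median of 48.3% against 52.7%.

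The sequences below show that composition in the CDSs of some members that differed in the later comparisons. For each one the in-frame stretch of 40 codons with the most glutamate, glutamine and lysine codons inside a single exon was read from the GENCODE transcript (GRCm38). Capitals mark those codons and the other codons are in lower case, from 5′ to 3′. The Akap9 stretch lies at chr5:3961348-3961467 on the plus strand in exon 7 of 48 (codons 684 to 723), the Pcnt stretch at chr10:76423088-76423207 on the minus strand in exon 11 of 42, the Cdk5rap2 stretch at chr4:70228599-70228718 on the minus strand in exon 35 of 37, the Cep250 stretch at chr2:155991071-155991190 on the plus strand in exon 28 of 33, and the Cep295 stretch at chr9:15335864-15335983 on the minus strand in exon 13 of 27. Cep68 (chr11:20239625-20239744, minus strand, exon 3 of 7) and Cep41 (chr6:30656498-30656617, minus strand, exon 10 of 11) are shown as members of lower content.
Akap9: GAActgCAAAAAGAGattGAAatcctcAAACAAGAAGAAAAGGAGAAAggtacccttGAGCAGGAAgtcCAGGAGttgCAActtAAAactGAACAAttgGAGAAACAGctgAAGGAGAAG
Pcnt: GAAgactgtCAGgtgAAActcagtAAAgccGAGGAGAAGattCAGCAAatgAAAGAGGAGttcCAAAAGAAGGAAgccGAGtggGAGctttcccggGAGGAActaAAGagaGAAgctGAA
Cdk5rap2: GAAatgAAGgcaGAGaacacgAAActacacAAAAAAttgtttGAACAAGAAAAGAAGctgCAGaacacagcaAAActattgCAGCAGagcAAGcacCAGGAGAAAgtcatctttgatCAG
Cep250: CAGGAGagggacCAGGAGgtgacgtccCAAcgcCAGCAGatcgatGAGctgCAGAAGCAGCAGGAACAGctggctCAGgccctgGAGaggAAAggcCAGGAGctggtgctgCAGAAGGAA
Cep295: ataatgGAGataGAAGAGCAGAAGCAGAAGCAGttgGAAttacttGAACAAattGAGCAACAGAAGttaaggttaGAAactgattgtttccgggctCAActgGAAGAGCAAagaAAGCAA
Cep68: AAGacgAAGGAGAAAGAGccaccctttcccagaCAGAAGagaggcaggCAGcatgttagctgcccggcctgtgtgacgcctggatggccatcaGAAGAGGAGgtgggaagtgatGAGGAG
Cep41: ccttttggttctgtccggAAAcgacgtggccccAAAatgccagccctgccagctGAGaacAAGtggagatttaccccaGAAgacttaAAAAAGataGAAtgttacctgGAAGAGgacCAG
The stretches held 27 such codons of 40 in Akap9, 23 in Pcnt, 20 in Cdk5rap2, 22 in Cep250 and 22 in Cep295, but 13 in Cep68 and 11 in Cep41. When stretches were allowed to cross exon borders, 33 of the 43 members had at least 1 stretch with 20 or more, as did 10.9% of the 10037 other CDSs long enough, and 15 of the 17 members with a CDS over 4000 nt, as did 30.4% of the 795 others of that length. Longer CDSs offer more stretches, so the second comparison is the closer one.

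The first question was whether RPFs of these transcripts were as frequent in the IP as among all ribosomes of the same cells. In Rps27-FLAG cells, 6 of the 43 members were lower in the IP than in total RPFs and 0 were higher (edgeR quasi-likelihood test, Benjamini-Hochberg adjusted p under 0.05 over 10085 transcripts, here termed called). The lower ones were Cep250, Akap9, Cep295, Pcnt, Ofd1 and Cdk5rap2. Among all tested transcripts, 5.34% were called lower and 0.327% higher. The median log2 fold change was -0.23 over the members and -0.01 over all tested transcripts. In Rps27l-FLAG cells, 4 members were lower (Cep250, Akap9, Cep295 and Cep192) and 0 higher, against 2.27% and 0.833% of all tested transcripts, with medians of -0.19 and -0.03. At an unadjusted p under 0.05, 2 members were higher and 15 lower in Rps27-FLAG cells, where 2230 of the 10085 transcripts differed in either direction. In Rps27l-FLAG cells 0 members were higher and 15 lower, where 1752 transcripts differed. The tools limma-voom and DESeq2 also called 0 members higher in either line.

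Cep250, also called C-Nap1, is the protein that ties the pair of centrioles together until mitosis, and it had the largest difference of any member in both lines. In Rps27-FLAG cells its level was 28.8, 34.5 and 33.6 CPM in total RPFs and 13.8, 16.1 and 15.1 in the IP of clones 1, 2 and 3. In Rps27l-FLAG cells it was 25.4, 31.8 and 27.7 in total RPFs and 16.2, 10.5 and 13.99 in the IP. IP and total libraries did not overlap in either line. The log2 fold change was -1.11 ± 0.13 (SE, adjusted p = 0.00284) in Rps27-FLAG cells and -1.05 ± 0.17 (adjusted p = 0.0217) in Rps27l-FLAG cells. The Rps27l-FLAG clones differed among themselves, with log2 ratios of IP to total of -0.64, -1.58 and -0.98, against -1.06, -1.10 and -1.14 in Rps27-FLAG clones.

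Akap9, the longest member, anchors kinases and γ-tubulin complexes at the centrosome and the Golgi. In Rps27-FLAG cells it measured 171, 180.5 and 178 CPM in total RPFs and 80.3, 92.2 and 87.1 in the IP. In Rps27l-FLAG cells it measured 139, 172 and 179.8 CPM in total RPFs and 84.0, 105 and 107 in the IP. The fractions stood apart in both lines, and the IP was lower by -1.03 ± 0.07 on the log2 scale in Rps27-FLAG cells (SE, adjusted p = 0.000783) and by -0.74 ± 0.13 in Rps27l-FLAG cells (adjusted p = 0.0227). Cep295, needed for new centrioles to mature into centrosomes, went from 132, 143 and 147 CPM in total RPFs to 71.7, 84.8 and 81.2 in the IP of Rps27-FLAG cells. In Rps27l-FLAG cells it went from 132, 129.9 and 142 to 79.7, 76.5 and 88.8, again without overlap. Its log2 fold changes were -0.83 ± 0.08 (adjusted p = 0.00164) and -0.72 ± 0.08 (adjusted p = 0.00571).

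**Figure D2:**
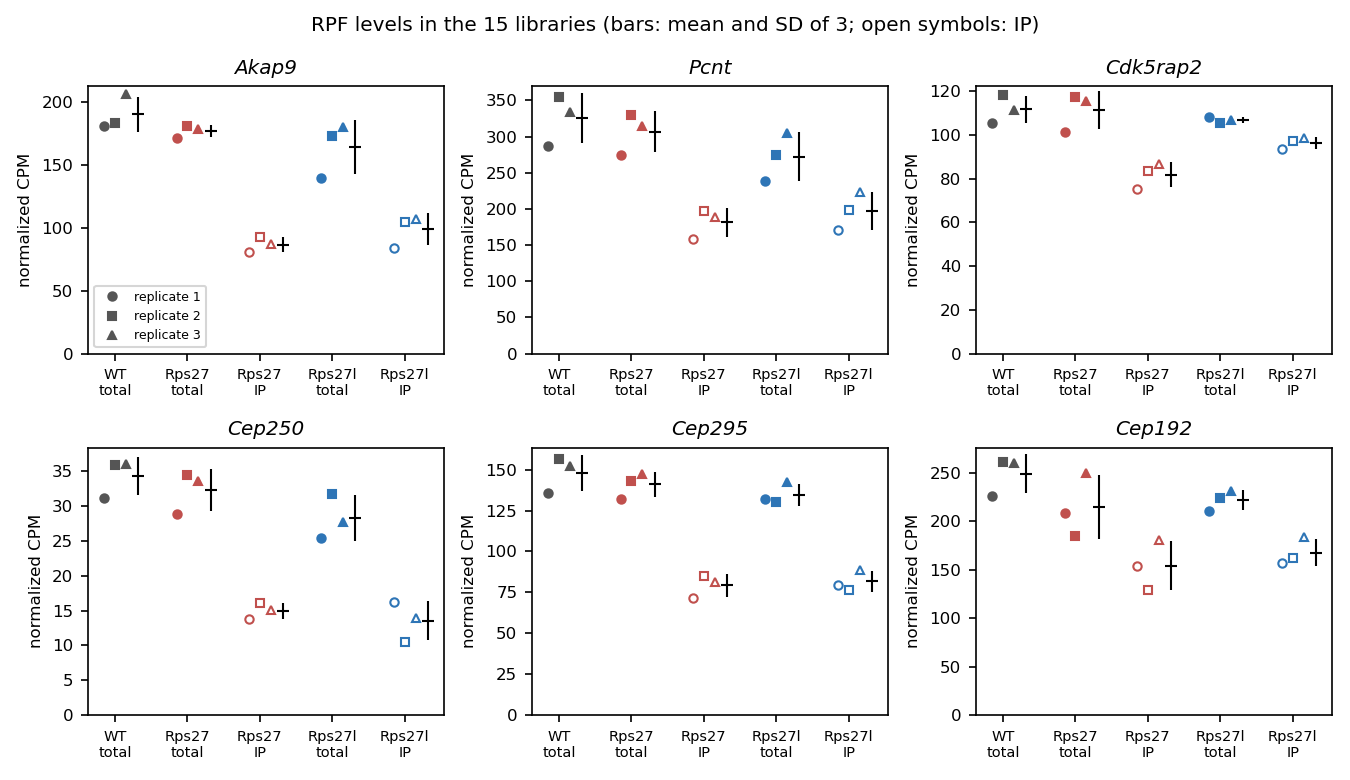
Normalized CPM of 6 members in each of the 15 libraries, by genotype and fraction (filled symbols, total RPFs; open symbols, IP; circle, square and triangle, replicates 1, 2 and 3), with the mean and SD of 3 beside each group. For all 6 genes every IP library lies under every total library of its line, and Akap9, Pcnt and Cdk5rap2 fall further in the Rps27-FLAG IP than in the Rps27l-FLAG IP.

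Pcnt (pericentrin) and Cdk5rap2 bind and activate γ-tubulin complexes in the pericentriolar material. Pcnt measured 275, 330.4 and 315 CPM in the total RPFs of Rps27-FLAG cells and 159, 197 and 188 in their IP. The Rps27l-FLAG values were 238, 274 and 305 CPM in total RPFs and 171, 198 and 223 in the IP. The fractions did not overlap in either line, but the test called only the first, at -0.76 ± 0.10 (SE, adjusted p = 0.00529), and gave -0.47 ± 0.12 (adjusted p = 0.0765) for the second. Cdk5rap2 measured 101, 117 and 115 CPM in total RPFs and 75.4, 83.4 and 86.4 in the IP of Rps27-FLAG cells, and 108, 105 and 107 against 93.5, 97.1 and 98.7 in Rps27l-FLAG cells. Its fold changes on the log2 scale were -0.45 ± 0.08 (adjusted p = 0.0221) and -0.15 ± 0.07 (adjusted p = 0.295). Cep192, which recruits mitotic kinases and the rest of the scaffold, was called in Rps27l-FLAG cells at -0.41 ± 0.08 (adjusted p = 0.0295) and stood at -0.48 ± 0.14 (adjusted p = 0.101) in Rps27-FLAG cells.

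Of the other scaffold genes named in the rule, Ofd1 alone was called, and in Rps27-FLAG cells only. Ofd1, a centriole and satellite protein needed for cilia, measured 45.9, 44.4 and 47.0 CPM in total RPFs and 32.3, 34.3 and 32.8 in the IP of Rps27-FLAG cells, a log2 fold change of -0.47 ± 0.08 (adjusted p = 0.0169). In Rps27l-FLAG cells it stood at -0.27 ± 0.10 (adjusted p = 0.191). Nin, which anchors microtubules at the subdistal appendages, stood at -0.49 ± 0.20 and -0.49 ± 0.16 in the Rps27-FLAG and Rps27l-FLAG lines, and Cntrl (centriolin) at -0.49 ± 0.15 and -0.29 ± 0.13. Cntrob, a protein of the daughter centriole, stood at -0.43 ± 0.16 and -0.33 ± 0.14, Ninl at -0.23 ± 0.19 and -0.18 ± 0.18, and Pcm1 at -0.15 ± 0.09 and -0.19 ± 0.05. None of these 5 was called in either line (lowest adjusted p = 0.0795, for Pcm1 in Rps27l-FLAG cells).

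The members with the highest values in Rps27-FLAG cells had CDSs of 1122 to 1941 nt. They were Cep41 (0.37 ± 0.13), Cep57l1 (0.30 ± 0.13), Cep57 (0.19 ± 0.10), Cep72 (0.16) and Cep44 (0.16), and none was called. In Rps27l-FLAG cells the highest were Cep135 (0.20 ± 0.14), which centriole assembly needs, Cep63 (0.20 ± 0.13), Cep70 (0.16), Cep55 (0.12) and Cep41 (0.08), and again none was called. By role, the 4 pericentriolar scaffolds had median log2 fold changes of -0.62 and -0.44 in the Rps27-FLAG and Rps27l-FLAG lines, the 9 appendage proteins and their relatives -0.23 and -0.25, the 9 satellite and cilium proteins -0.25 and -0.19, and the 13 centriole duplication and assembly proteins -0.09 and -0.00172. The roles differed in CDS length, with medians of 8148, 4185, 3060 and 2373 nt in the same order.

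The IP and total libraries of a clone deviated together from their group means in all 6 clones, so the clone was also fitted as a block (replicate block). Libraries of the same number from different clones also tended to deviate together (median r = 0.445), and the parts of clone and sequencing batch were not tested. The fold changes moved little, but the number of calls rose: 21 members were lower and 4 higher (Cep41, Cep44, Cep57 and Cep57l1) in Rps27-FLAG cells, against 22.9% and 18.3% of all tested transcripts. In Rps27l-FLAG cells 21 were lower and 1 higher (Cep55), against 19.0% and 12%. All 4 pericentriolar scaffolds were lower in both lines with the block, as were Nin, Cntrl, Cntrob and Pcm1. Without the block the calls depended on the clones: leaving out Rps27-FLAG clone 2 or 3 left 0 transcripts called among all tested, and leaving out clone 1 gave 11 members lower and 1 higher (Cep57), of 1140 and 677 among all 10085 transcripts. In Rps27l-FLAG cells, leaving out clone 1 or 2 likewise left 0 calls in all, and leaving out clone 3 gave 5 members lower, of 241 among all transcripts. Counted without a fit, 20 members had all IP libraries under all total libraries in Rps27-FLAG cells and 2 had them all above (all tested transcripts: 17.0% and 11.3%), and 19 and 1 did in Rps27l-FLAG cells (14.2% and 9.11%).

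Both IPs were depleted of long CDSs in general. Across the 10082 tested transcripts with a CDS, Spearman's rho between CDS length and the IP over total fold change was -0.56 in Rps27-FLAG cells and -0.53 in Rps27l-FLAG cells, and across the 43 members it was -0.80 and -0.69 (transcripts share the libraries and are not replicates). For the share of glutamate, glutamine and lysine codons, rho with the fold change was 0.11 and 0.12 over the same transcripts. Over CDSs longer than 4000 nt it was 0.00148 and 0.05, and over the members -0.27 and -0.01. Leucine codons made up a median of 11.5% of codons in the members and 9.74% in the others. Their rho was -0.17 and -0.15 over all these transcripts, -0.38 and -0.29 over CDSs longer than 4000 nt, and -0.20 and 0.03 over the members. Among CDSs up to 2000 nt, 10 members had a median log2 fold change of 0.11 in Rps27-FLAG cells and 0.07 in Rps27l-FLAG cells, and the 6842 other transcripts had medians of 0.06 and 0.03. In that class 0 members were called lower in either line, as were 1.11% of the others in Rps27-FLAG cells and 0.132% in Rps27l-FLAG cells. From 2000 to 4000 nt, 16 members had medians of -0.23 and -0.22, against -0.14 and -0.13 for 2402 others. Over 4000 nt, 17 members had medians of -0.48 and -0.29, against -0.34 and -0.28 for 795 others. In that longest class 5 of 17 members were called lower in Rps27-FLAG cells, as were 30.3% of the others, and 4 of 17 in Rps27l-FLAG cells, as were 17.0% of the others.

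**Figure D3:**
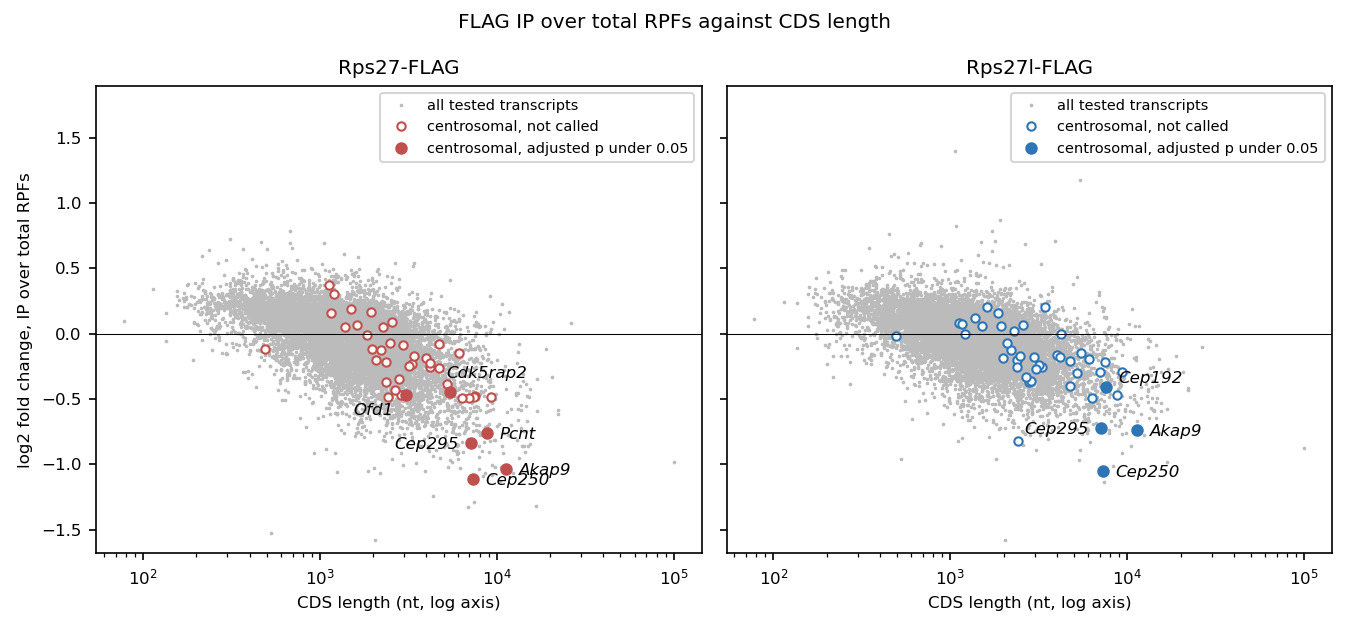
Log2 fold change of IP over total RPFs against CDS length (log axis) in Rps27-FLAG cells (left) and Rps27l-FLAG cells (right). Grey points are all tested transcripts, open circles centrosomal transcripts that were not called, and filled circles those called; both clouds slope down with length, and Cep250, Akap9 and Cep295 lie near the lower edge of transcripts of their length in both panels.

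Each member was therefore set beside the 200 tested non-members nearest in CDS length. The median over members of this difference was -0.05 in Rps27-FLAG cells and -0.04 in Rps27l-FLAG cells, with an SD over the 3 clones of 0.03 and 0.04. In Rps27-FLAG cells 24 members lay below their neighbours' median and 19 above it, and in Rps27l-FLAG cells 22 and 21. By role, the medians in the Rps27-FLAG and Rps27l-FLAG lines were -0.24 and -0.09 for the pericentriolar scaffolds and -0.03 and 0.01 for the appendage proteins. They were -0.07 and 0.09 for the satellite and cilium proteins and 0.09 and 0.02 for the duplication and assembly proteins. The median member, then, lay close to other transcripts of its length, and the individual members spread widely around them.

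Cep250 lay furthest below its neighbours (CDSs of 6024 to 8877 nt), by -0.71 in Rps27-FLAG cells, where 2 of the 200 were lower, and by -0.72 in Rps27l-FLAG cells, where 1 was lower. Akap9 lay at -0.59 and -0.38, with 8 and 11 of 200 lower. Few CDSs are as long as that of Akap9, so its neighbours span 6930 to 16905 nt. Cep295 lay at -0.44 and -0.39, with 16 and 8 of 200 lower. Cep85l, a protein linked to neuronal migration, lay at -0.39 and -0.71, with 12 and 0 of 200 lower, but rests on only 8 to 47 counts per library, and its clones ranged from -0.41 to -1.37 in Rps27l-FLAG cells. Pcnt lay at -0.36 in Rps27-FLAG cells (25 of 200 lower) and at -0.11 in Rps27l-FLAG cells (60 of 200 lower), and Cep112 at -0.34 and -0.23, on 15 to 49 counts.

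At the upper end, Cep41, which acts in the modification of ciliary tubulin, lay 0.35 above its neighbours in Rps27-FLAG cells, with 198 of 200 lower. It was followed by the paralogs Cep57l1 at 0.30 (191 lower) and Cep57 at 0.23 (178 lower), and by Pcm1 at 0.24 (155 lower) and Cep170, a protein of the subdistal appendages, at 0.23 (154 lower). In Rps27l-FLAG cells the order was led by Cep135 at 0.43 (197 lower), Cep63 at 0.25 (192 lower), Cep70 at 0.24 (187 lower), Cep97 at 0.21 (172 lower) and Cep162 at 0.19 (176 lower). Cep63 helps to recruit the kinase that starts centriole duplication, and Cep97 caps the growing centriole. Across the 43 members, the values of the lines correlated with Pearson's r = 0.78 and Spearman's rho = 0.74, a description over transcripts that share sequencing batches but no libraries. For the fold changes not set against neighbours, Pearson's r was 0.86 over the members and 0.71 over all tested transcripts.

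**Figure D4:**
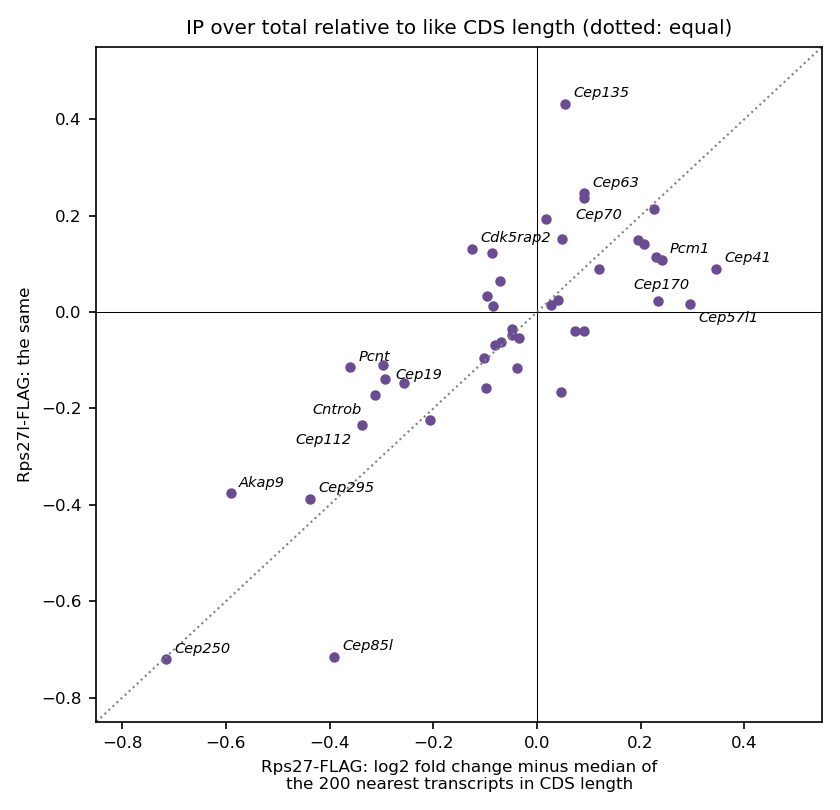
Log2 fold change of IP over total minus the median of the 200 tested transcripts nearest in CDS length, in Rps27-FLAG cells (x axis) and Rps27l-FLAG cells (y axis), 1 point per member. Cep250 lies near -0.7 on both axes, and Pcnt and Akap9 lie above the dotted line of equal values.

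The comparison was also fitted after removing each library's trend on CDS length across all transcripts. In Rps27-FLAG cells Akap9 was then the one member called, at -0.53 ± 0.07 (SE, adjusted p = 0.0426), while 0.178% of all tested transcripts were called lower and 0.0892% higher. Cep250 kept a value of -0.71 ± 0.13 (adjusted p = 0.0703), Cep295 of -0.43 ± 0.09 (adjusted p = 0.0915) and Pcnt of -0.31 ± 0.11 (adjusted p = 0.235). In Rps27l-FLAG cells 0 members were called, against 0.0198% lower and 0.0595% higher of all tested transcripts, with 6 members at an unadjusted p under 0.05, of 1145 among the 10085 transcripts. The values there were -0.72 ± 0.18 for Cep250 (adjusted p = 0.146), -0.40 ± 0.09 for Cep295 (adjusted p = 0.134) and -0.34 ± 0.11 for Akap9 (adjusted p = 0.264). Spearman's rho between CDS length and the fold changes of this fit was still -0.45 and -0.29 over the members in the Rps27-FLAG and Rps27l-FLAG lines. It was 0.00849 and -0.00415 over all tested transcripts with a CDS.

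With the replicate block and the length trend removed together, 6 members were lower in Rps27-FLAG cells (Cep250, Akap9, Cep295, Pcnt, Ofd1 and Cep89) and 10 higher (Cep41, Cep44, Cep55, Cep57, Cep57l1, Cep72, Cep85, Cep97, Cep170 and Pcm1), where 12.9% of all tested transcripts were lower and 18.4% higher. In Rps27l-FLAG cells 5 were lower (Cep250, Akap9, Cep295, Pcnt and Cep85l) and 5 higher (Cep55, Cep70, Cep85, Cep135 and Pcm1), against 7.69% and 14.8%. Cep250, Akap9, Cep295 and Pcnt were thus lower, and Cep55, Cep85 and Pcm1 higher, in both lines in this fit. Pcm1, called lower with the block alone, was higher once length was removed, at 0.21 ± 0.03 and 0.10 ± 0.03.

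**Figure D5:**
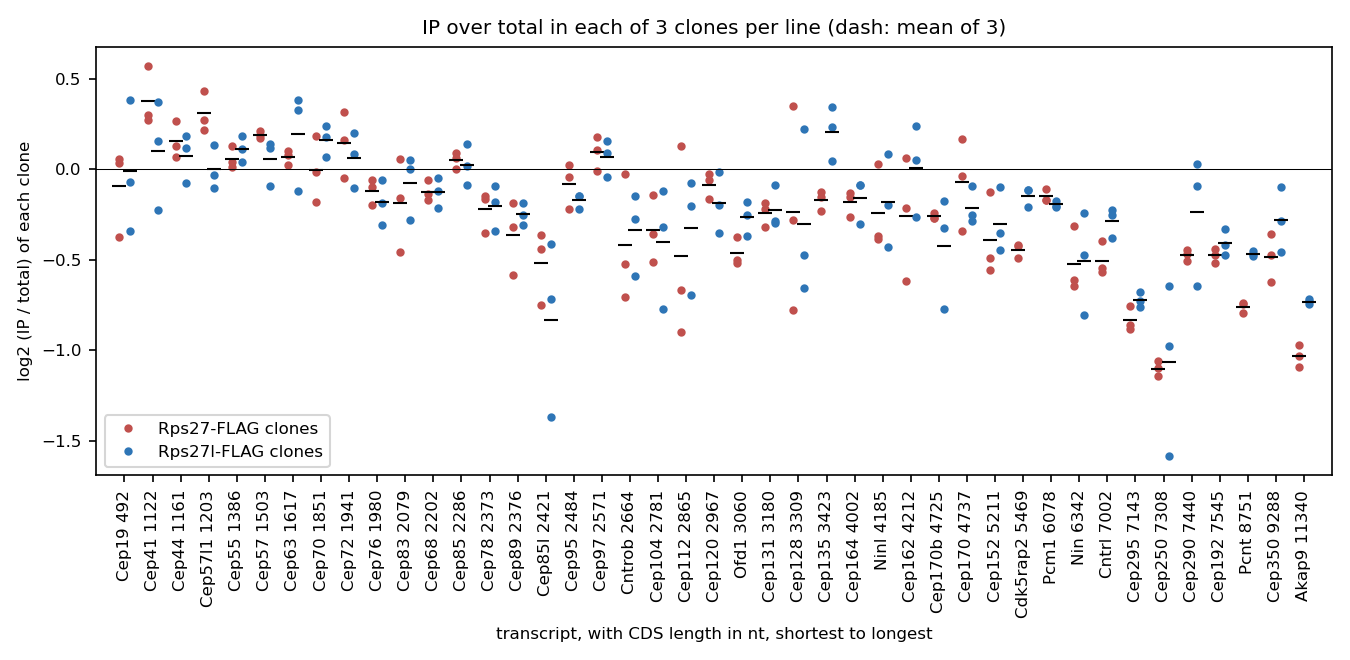
Log2 ratio of IP to total RPFs in each clone (red, 3 Rps27-FLAG clones; blue, 3 Rps27l-FLAG clones; dash, mean of 3) for the 43 tested members, ordered by CDS length in nt. The red and blue points separate for Pcnt, Akap9, Cdk5rap2, Ofd1, Cntrl and Cep135 (blue higher) and for Cep57, Cep57l1 and Pcm1 (red higher). These are 6 and 3 of the 43 members. Among all tested transcripts the clones separated in the same way for 9.08% (Rps27l-FLAG higher) and 7.13% (Rps27-FLAG higher). The spread between clones is widest for low-count members such as Cep85l, Cep112 and Cep128.

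The second question was whether the ratio of IP to total differed between ribosomes that carry Rps27l and those that carry Rps27. This was tested in a single model of the 12 libraries of the tagged lines, with each clone as its own block and a limit of 0.25 on the log2 difference. Of the 43 members, 3 scaffold genes (Pcnt, Akap9 and Cdk5rap2) had higher ratios among Rps27l-ribosomes, and 0 had higher ratios among those with Rps27 (an unadjusted p under 0.05 was reached by 2, where 1217 transcripts reached it in either direction; 0 by limma-voom and by DESeq2 without its independent filter). Of all tested transcripts, 0.476% were called higher among Rps27l-ribosomes and 0.0992% higher among Rps27-ribosomes. Over CDSs longer than 4000 nt, 3 of the 17 members and 3.65% of the 795 others were called higher among Rps27l-ribosomes. Beside the 200 non-members nearest in CDS length, the difference of Cdk5rap2 lay 0.25 above their median (193 of 200 lower). That of Pcnt lay 0.23 above (176 lower) and that of Akap9 0.20 above (174 lower). The median over all 43 members was 0.00292.

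Pcnt had log2 ratios of IP to total of -0.79, -0.75 and -0.74 in the Rps27-FLAG clones and -0.48, -0.47 and -0.45 in the Rps27l-FLAG clones. Akap9 had -1.09, -0.97 and -1.03 against -0.73, -0.72 and -0.75. Cdk5rap2 had -0.43, -0.49 and -0.42 against -0.21, -0.12 and -0.11. For all 3 genes every Rps27l-FLAG clone lay above every Rps27-FLAG clone, as was the case for 9.08% of all tested transcripts. The differences on the log2 scale were 0.29 ± 0.05 for Pcnt (SE, adjusted p = 1.37e-05), 0.30 ± 0.06 for Akap9 (adjusted p = 0.00106) and 0.30 ± 0.07 for Cdk5rap2 (adjusted p = 0.00438). These 3 remained called with any of the 6 clones left out and by limma-voom, but not by DESeq2 without its independent filter (adjusted p = 0.101 for Pcnt, 0.624 for Akap9 and 1.00 for Cdk5rap2), nor without the clone as a block, where 0 members were called.

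Cep192, the other scaffold of this layer, had a difference of 0.06 ± 0.05 (adjusted p = 0.701). Cep135 had a larger difference of 0.39 ± 0.13 that was not called (adjusted p = 0.109), with clone ratios of 0.35, 0.05 and 0.23 in Rps27l-FLAG cells and -0.23, -0.15 and -0.12 in Rps27-FLAG cells. Among the remaining scaffold genes the differences were 0.20 ± 0.11 for Ofd1, 0.19 ± 0.10 for Cntrl, 0.12 ± 0.18 for Cntrob, 0.05 ± 0.15 for Ninl, -0.00 ± 0.22 for Nin and -0.04 ± 0.04 for Pcm1, none of them called. The median difference was 0.05 over the members and -0.00299 over all tested transcripts.

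With the CDS length trend removed, 0 members passed both limits between the lines, while 0.188% of all tested transcripts had called ratios that were higher in Rps27l-FLAG cells and 0.0992% had ones higher in Rps27-FLAG cells. Pcnt stayed under the threshold on the adjusted p at 0.20 ± 0.05 (adjusted p = 0.0102) but not past the limit of 0.25. Cdk5rap2 stood at 0.23 ± 0.07 (adjusted p = 0.0579) and Akap9 at 0.20 ± 0.06 (adjusted p = 0.0843), and 6 members had an unadjusted p under 0.05, of 1187 among the 10085 transcripts.

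Total RPFs answered whether tagging itself went with different translation of these genes. By edgeR 0 of the 43 members were called between Rps27-FLAG and WT, Rps27l-FLAG and WT, or Rps27l-FLAG and Rps27-FLAG cells, and 0% of all tested transcripts were called in each. At an unadjusted p under 0.05 the members numbered 1, 4 and 1, of 294, 574 and 580 transcripts in all, and DESeq2 and limma-voom also called 0 members. In bulk libraries of this kind, fewer cells of a type, less mRNA per cell and fewer ribosomes per mRNA cannot be told apart. With the replicate number as a block, 1 member was called: Pcnt was lower in Rps27l-FLAG than in WT cells by -0.26 ± 0.06 (SE, adjusted p = 0.0492), where 1.43% of all tested transcripts were called. Its total RPFs were 287, 355 and 334 CPM in WT cells and 238, 274 and 305 in Rps27l-FLAG cells, so the groups overlapped while each Rps27l-FLAG clone lay under the WT clone of its number. Across the 9 total libraries the members varied little, with SDs on the log2 scale from 0.06 for Cep120 to 0.42 for Cep85l and a median of 0.15, against 0.16 over all tested transcripts.

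Other centrosome genes outside the rule gave a background for the pathway. Of 76 such genes listed, among them the γ-tubulin complex, the kinase Plk4 and the augmin subunits, 75 were found in the counts and 72 tested. In the Rps27-FLAG IP 11 of the 72 were lower than in total RPFs and 0 higher: the spindle pole protein Aspm (-1.01 ± 0.06), the γ-tubulin complex subunits Tubgcp6 (-1.02 ± 0.20), Tubgcp3, Tubgcp5 and Tubgcp2, Alms1, Wdr62, Rttn, Kif24, Plk4 and Haus6. Of all tested transcripts, 5.34% were lower there. In the Rps27l-FLAG IP 6 were lower (Aspm, Tubgcp6, Ccp110, Plk4, Rttn and Alms1) and 0 higher, against 2.27% of all tested transcripts lower. Their median log2 fold changes were -0.05 and -0.04, on a median CDS of 1974 nt. Wdr62, a spindle pole protein, was the one called between the lines, with a higher ratio among Rps27l-ribosomes by 0.34 ± 0.08 (SE, adjusted p = 0.00853). Its IP over total fold change was below 0 in both lines. It stood at -0.69 ± 0.11 in Rps27-FLAG cells and at -0.33 ± 0.10 in Rps27l-FLAG cells, where it was not called. With the length trend removed, Aspm was lower in the Rps27-FLAG IP (-0.55 ± 0.06, adjusted p = 0.0371), Ckap5, a microtubule polymerase, was higher in the Rps27l-FLAG IP (0.45 ± 0.04, adjusted p = 0.0180), and Wdr62 stayed higher among Rps27l-ribosomes (0.29 ± 0.08, adjusted p = 0.0455).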

How the data were processed

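Ribosome profiling gave RPFs of 26 to 34 nt from 15 libraries of mESC clones. Per the labels and the study's methods, the authors trimmed reads with cutadapt 2.4, collapsed molecular identifiers with UMI-tools 1.0.1, aligned with Bowtie2 2.3.4.3 to canonical GENCODE transcripts (GRCm38) and deposited raw counts of ribosomal A sites per transcript, leaving out the first 15 and last 5 codons of each CDS. The file names transcripts by Ensembl identifier. Symbols, CDSs and coordinates came from GENCODE M21, which held 21713 of 21727.

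The 13 mitochondrially encoded transcripts were removed, transcripts over 2 CPM in at least 14 libraries were kept (the methods give the CPM limit but no number of libraries), and libraries were scaled by TMM within IP and within total libraries, as in the study. Counts were tested with edgeR 4.0.16 (glmQLFit, glmQLFTest, R 4.3.3) in place of the study's voom, with Benjamini-Hochberg adjustment over all 10085 transcripts. IP was compared with total by fraction alone. The difference between lines used clone within line and fraction within line, with an adjusted p under 0.05 and a log2 limit of 0.25, and total RPFs used line alone over 9 libraries. Tmod3, which the study left out, was kept. For fits with the CDS length trend removed, loess curves (span 0.5) of each library on log2 CDS length were used as offsets. Clone ratios had 0.5 counts added. RPF density is normalized CPM per kb of counted CDS.

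IP and total libraries of a number come from the same clone by the labels. Their deviations from group means correlated at 0.470 to 0.792 in all 6 clones. Libraries of the same number from different clones, which share a sequencing batch, correlated at -0.165 to 0.714 with a median of 0.445. In blocked fits each transcript keeps few residual degrees of freedom and the spread is largely borrowed across transcripts.

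Alternatives were limma 3.58.1 (voom), DESeq2 1.42.0, DESeq2 size factors, TMM over all 15 libraries, a filter of 2 CPM in at least 3 libraries, no filter, all 12 tagged libraries together, a loess span of 0.3, a spline, 100 or 400 neighbours, and each clone left out. Scripts were tested on simulated data. The members and lists were chosen with earlier results of these data known. Genes named are the 9 scaffolds, members called in a comparison, the 5 lowest and 5 highest members in each IP to total comparison and relative to like CDS length, the 3 highest and 3 lowest by density in WT, untested members, and other centrosome genes called. Cep89, Cep85 and Cep128, Ckap5, Cep83, Cep290, Cep170b, Cep76, Cep68, Cep120 and Cep19 were named after their values were seen. Libraries held 3972152 to 8064166 counts, and p-values rest on 3 clones a group.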

Additional observations from a re-analysis of the deposited data

Results flagged for a closer look

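Each of 3 genes of the pericentriolar scaffold differed between the tagged lines in the ratio of IP to total RPFs, by the interaction test of the model of 12 libraries. The log2 difference, Rps27l-FLAG minus Rps27-FLAG, was 0.29 for Pcnt, 0.30 for Akap9 and 0.30 for Cdk5rap2. With the CDS length trend removed, the difference of Pcnt alone kept an adjusted p under 0.05, at 0.20. Groups of 3 are too small for a test of single outlying libraries.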

How the results depend on the processing

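The settings moved the number of calls more than the fold changes. With the replicate block the members lower in the IP numbered 21 in each line, in place of 6 (Rps27-FLAG) and 4 (Rps27l-FLAG), and those higher 4 and 1, in place of 0. Leaving out a clone gave 0 to 11 lower and 0 to 1 higher members in Rps27-FLAG cells, and 0 to 5 lower in Rps27l-FLAG cells, while the calls among all 10085 transcripts ranged from 0 to 1140 lower and 0 to 677 higher, and from 0 to 241 lower. With the CDS length trend removed, the block gave 16 differing members in Rps27-FLAG cells (main value 1; 0 to 6 with a clone left out, where 6 goes with 417 lower and 679 higher transcripts in all) and 10 in Rps27l-FLAG cells (main value 0). The 3 members higher among Rps27l-ribosomes became 0 without the replicate block and 0 by DESeq2 without independent filtering, a setting chosen after seeing the data because DESeq2's own filter left an adjusted p for 1 of 43 members there. Without the limit on the fold change, 1 member (Pcnt) differed between lines after length removal. The block gave 1 member differing in total RPFs between Rps27l-FLAG and WT cells (main value 0). The cause of these shifts was not tested. All other settings left these counts, and the medians relative to like CDS length (-0.05 and -0.04 in the main setting; -0.05 to -0.03 and -0.03 to -0.01 with a clone left out), within 1.5 times or 1 SD. Sign changes among named members were all at values that were not called. Cep162 in the Rps27l-FLAG IP turned to 0.0208 under TMM over all 15 libraries, 0.00154 with the filter in at least 3 libraries and 0.000941 without a filter, and ranged from -0.113 to 0.139 with a clone left out. Nin between the lines turned to 0.000189 with DESeq2 size factors, 0.00830 under TMM over all 15 libraries, 0.00304 with the filter in at least 3 libraries, 0.000455 by voom, 0.00885 by DESeq2 without independent filtering, and ranged from -0.170 to 0.147 with a clone left out. With a clone left out, Cep170 ranged from -0.194 to 0.0541 in the Rps27-FLAG IP, Cep41 from -0.0371 to 0.256 in the Rps27l-FLAG IP, and between the lines Cntrob from -0.0595 to 0.316 and Ninl from -0.0657 to 0.191. Low-count members such as Cep85l, Cep112 and Cep128 are limited by depth.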
